A study of Zea mays with 12 samples.

Results

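In maize (Zea mays) plants carrying the Sdw3 mutation, a set of 80 genes had lower transcript levels than N18 in the growing stem and higher levels than N18 in the zone of the leaf where the ligule forms. These 80 of 39514 measured genes were chosen by their measured values, so their opposite direction in the 2 tissues is how they were picked and not a result. A member had to reach an FPKM of 2 in at least 1 genotype in each tissue, and its log2 ratio of (Sdw3 FPKM + 1) to (N18 FPKM + 1) had to be at most -0.4 in the internode and at least 0.4 in the ligular region. The SBP-box gene ub2 and the growth-regulating factor gene GRF2 were left out by name, and 1 of them, ub2, lay within those limits. FPKM counts sequenced fragments relative to the length of the transcript and to the size of the library.

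The samples were Sdw3 and N18, each given as a cultivar by the labels, at the V7 vegetative stage. One tissue was the young stem segment (internode) flanked by leaf 7 and leaf 8, and the other was the ligular region of leaf 8 and leaf 9, also immature. Each of the 4 combinations of genotype and tissue had 3 libraries by the labels, 12 in all, and the deposited tables hold 1 value per gene for each combination, read here as an FPKM combined over its libraries. No spread between libraries can therefore be set beside a level, the depth of a library is unknown, and it is not stated whether the 3 libraries came from separate plants. How closely related Sdw3 and N18 are apart from the mutation is not given in the sources used here, so effects of the mutation and of other differences between the lines cannot be told apart.

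A maize internode grows by cell division in a meristem at its base followed by elongation of the cells above it. The ligular region is the boundary between leaf sheath and blade, where a fringe of epidermal tissue, the ligule, and the hinge-like auricles form. Growth-regulating factors are plant transcription factors that work with GIF coactivators and keep cells of young stems and leaves dividing.

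The tissues could be told apart by the knotted-type homeobox genes of the stem axis kn1, gnarley1 and knox3. The level of kn1 was 179.7 in the Sdw3 internode and 171.5 in the N18 internode, and all 3 genes are listed at 0 in the ligular regions of both genotypes. In the internode knox3 was called lower, at 25.6 in Sdw3 and 33.7 in N18, and gnarley1 was not called, at 27.3 and 27.01. The ligule gene lg1 was at 14.96 and 14.90 in the ligular regions of Sdw3 and N18 and at 0.183 and 0.125 in their internodes. Another gene of the ligule list, lg4, was at 25.8 and 21.2 in the internodes of Sdw3 and N18 and near 0 in both ligular regions. The remaining gene of that list, lg2, was called higher in the Sdw3 ligular region, at 2.95 in Sdw3 and 0.925 in N18. Below, a gene is called when the authors' deposited table lists it with a q-value (a p adjusted for multiple tests) under 0.05.

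Among the 80 members, 53 of the 76 tested in the internode were called lower in Sdw3, where 4.76% of all tested genes were called lower. In the ligular region 59 of the 78 tested were called higher, where 13.1% of all tested genes were called higher. In both tissues together 48 members were called, 5 were called in the internode alone, 11 in the ligular region alone and 16 in neither. Over all 20099 genes tested in both tissues, 0.647% were called with this pair of directions. These shares cannot be read against each other, because the same contrasts chose the members.

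The other 82 genes that were called with this pair of directions but are not members include the 2 genes left out by name. Of the rest, 66 had a ratio short of the limit in a tissue, and 14 stayed under an FPKM of 2 in a tissue. With the same limits, 177 genes showed the opposite pattern, 398 were higher in Sdw3 in both tissues and 175 were lower in both.

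Changes were mostly modest. Relative to N18, the median log2 ratio of the members was -0.55 for the internode and 0.76 for the ligular region, beside medians of -0.03 and 0.00 over the 18055 genes that reached an FPKM of 2 in both tissues. For 58 members the change was larger in the ligular region, and for the other 22 in the internode. Among the 48 members called in both, the N18 level was 1.33 to 3.76 times the Sdw3 level in the internode, with a median of 1.45. In the ligular region the Sdw3 level was 1.38 to 9.04 times the N18 level, with a median of 1.90. A change of at least 2-fold was reached by 6 of the 48 in the internode, by 21 in the ligular region and by 3 in both tissues.

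**Figure D1:**
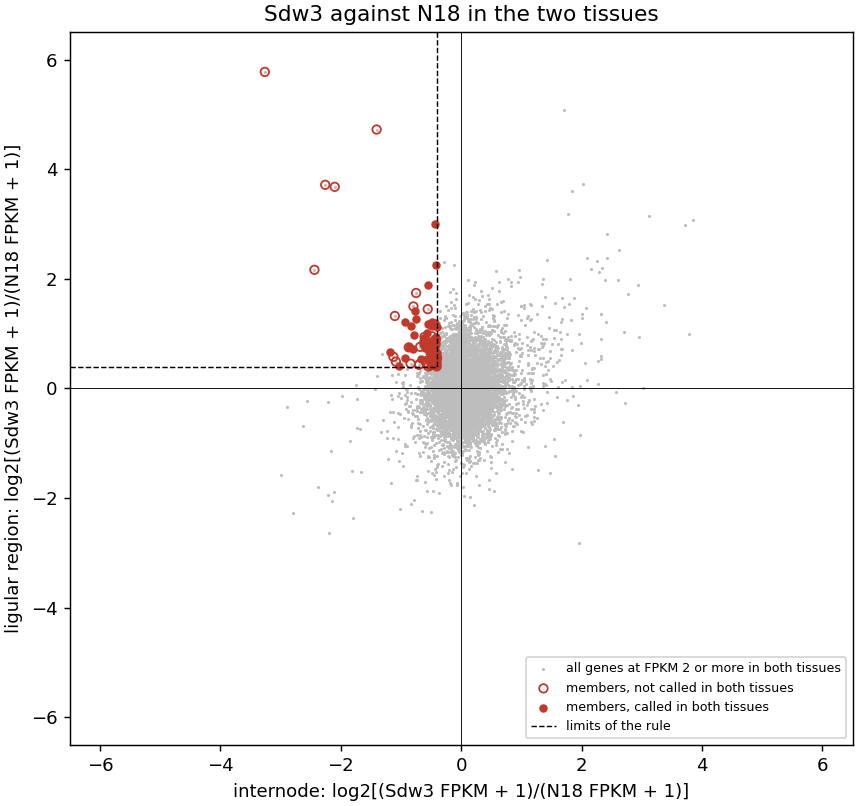
Log2 ratio of Sdw3 to N18 on the FPKM + 1 scale in the internode (horizontal) and in the ligular region (vertical) for 18055 genes (grey) and the 80 members (red, filled where called in both tissues), with dashed lines at the limits of -0.4 and 0.4. Most members lie close to the corner of the limits, and the 5 most distant ones are open circles, called in neither tissue; 3 genes fall outside the plotted range of 6.5 in either direction.

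In these whole-tissue samples, fewer cells of a type and less RNA per cell cannot be told apart. Of 6 genes of vascular secondary walls (laccases and cellulose synthases), 4 were called lower in the Sdw3 ligular region and 0 higher, with a summed FPKM of 81.1 in Sdw3 and 155 in N18. Over all genes tested in the ligular region, 13.7% were called lower in Sdw3 and 13.1% higher. Both entries of cesa11 were near 0 throughout. Of 9 genes of blade photosynthesis, 3 (pep1, ME1 and Ppdk1, enzymes of C4 carbon fixation) were called higher in the Sdw3 ligular region and 1 (lhcb6) lower. The list summed to 6922 in Sdw3 and 6622 in N18 there, with lhcb7 its largest part (2738 and 2607). The sums hide larger differences of single genes between Sdw3 and N18. In that tissue pep1 was at 175 and 35.1, and ME1 at 73.9 and 16.7. Ppdk1 was at 476 and 240, and lhcb6 at 777 and 1196. In the internode the vascular list summed to 61.4 in Sdw3 and 61.8 in N18, with 0 of 6 called. The photosynthesis list summed to 1307 and 1412, with 1 called higher and 1 lower. Higher was Ppdk1 (24.8 in Sdw3 and 5.62 in N18), and lower was the rbcS gene GRMZM2G098520 (83.1 and 118). Among all genes tested in the internode, 6.54% were called higher and 4.76% lower. Epidermis genes gave 1 called higher of 3 in each tissue, with sums of 7.07 in Sdw3 and 6.196 in N18 in the internode and of 107 and 90.0 in the ligular region. Floral genes summed to 0.337 in Sdw3 and 0.312 in N18 in the internode and to 4.01 and 2.28 in the ligular region, where ZAG1 was called higher. The part of these markers in the members' values was not tested.

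Only 5 of the 80 members carry a gene name in the reference table: the growth-regulating factor gene GRF3, the ribosomal stalk gene RPP2A, the aquaporin gene TIP4-1, gar2 and ROA4. For 31 members the table has no entry, and the other 44 have only a locus or marker name, so no role is given for those 75. All 5 named genes were called higher in the Sdw3 ligular region, and all but TIP4-1 were called lower in the Sdw3 internode. The smallest q-values that the authors' deposited tables list are 0.00109 for the internode and 0.000398 for the ligular region. Each of these 5 members has those in its called comparisons unless another is given. For other genes named below, a q-value that is not printed may be larger than these.

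**Figure D2:**
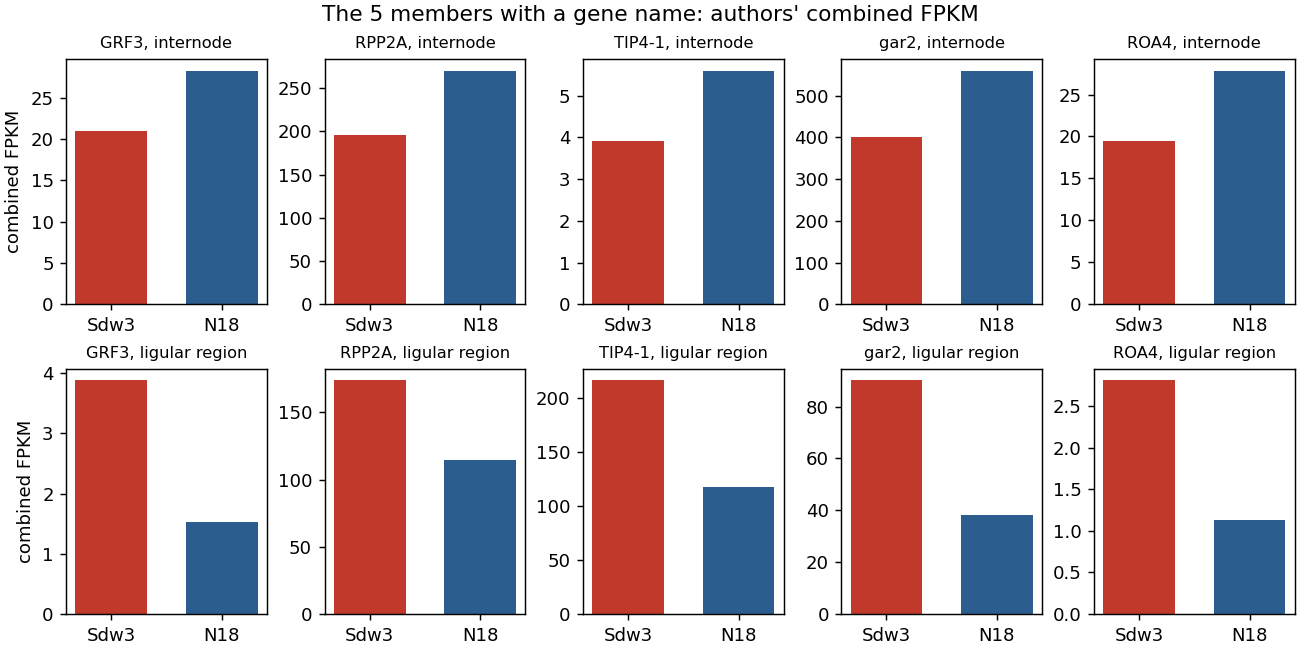
Authors' combined FPKM of the 5 members with a gene name, with the internode in the upper row and the ligular region in the lower row, and Sdw3 (red) left of N18 (blue). Bars start at 0 and have no error bars because only combined values are in the tables; RPP2A has similar levels in both tissues in Sdw3 (196 and 174) but not in N18 (270.1 and 115), TIP4-1 is at 3.92 and 5.60 in the internodes and at 216 and 117 in the ligular regions of Sdw3 and N18, and the other 3 are more abundant in the internode.

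GRF3 (GRMZM2G105335, also listed as atGRF5 after its Arabidopsis relative; chromosome 4, 177152122 to 177154056 on B73 RefGen_v3) was at an FPKM of 20.9 in the Sdw3 internode and 28.3 in the N18 internode. The authors' deposited table lists q = 0.00581 for that tissue. Its ligular level was 3.88 in Sdw3 and 1.53 in N18, a 2.53-fold difference. The gene was thus far more abundant in the internode in both genotypes. A narrower gap between tissues in Sdw3 follows from the limits for any member of this kind.

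Within its family, GRF3 was the only member of the set of 80. The limits chose it, so its place among the called genes counted here is a result of the selection. Of 15 growth-regulating factor genes tested in the internode, 11 were called lower and 0 higher, and the remaining 4 did not pass. Among all genes tested there, 4.76% were called lower and 6.54% higher. Of 14 tested in the ligular region, 4 were called higher and 1 lower, and the remaining 9 did not pass the authors' test. The shares over all genes tested in that tissue were 13.1% higher and 13.7% lower. Over the 11 family genes that reached an FPKM of 2 in both tissues, the median log2 ratio was -0.35 for the internode and 0.19 for the ligular region.

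Besides GRF3, the genes called higher in the Sdw3 ligular region were GRF8, GRF2 and GRF4. GRF8 (GRMZM2G033612) was at 4.60 in Sdw3 and 2.19 in N18 in the ligular region, and at 11.8 and 12.1 in the internode, where it was not called. GRF2 (GRMZM2G099862) was called in both tissues in the same directions as GRF3, at 1.97 in Sdw3 and 1.07 in N18 in the ligular region, under the FPKM limit of 2. GRF4 (GRMZM2G004619) was at 15.5 in Sdw3 and 11.8 in N18 in the ligular region, for which the authors' deposited table lists q = 0.0279, and was not called in the internode. The gene listed only as GRF1 (GRMZM2G178261) was called lower in both tissues, at 16.3 in Sdw3 and 25.4 in N18 in the ligular region. The coactivator gene GIF1 was at 92.9 in the Sdw3 internode and 151 in the N18 internode, called lower, and at 1.67 and 1.43 in the ligular region, not called. The other coactivator gene found by name, GIF2, was called in neither tissue, at 23.1 in Sdw3 and 24.5 in N18 in the internode and at 15.5 and 19.96 in the ligular region.

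**Figure D3:**
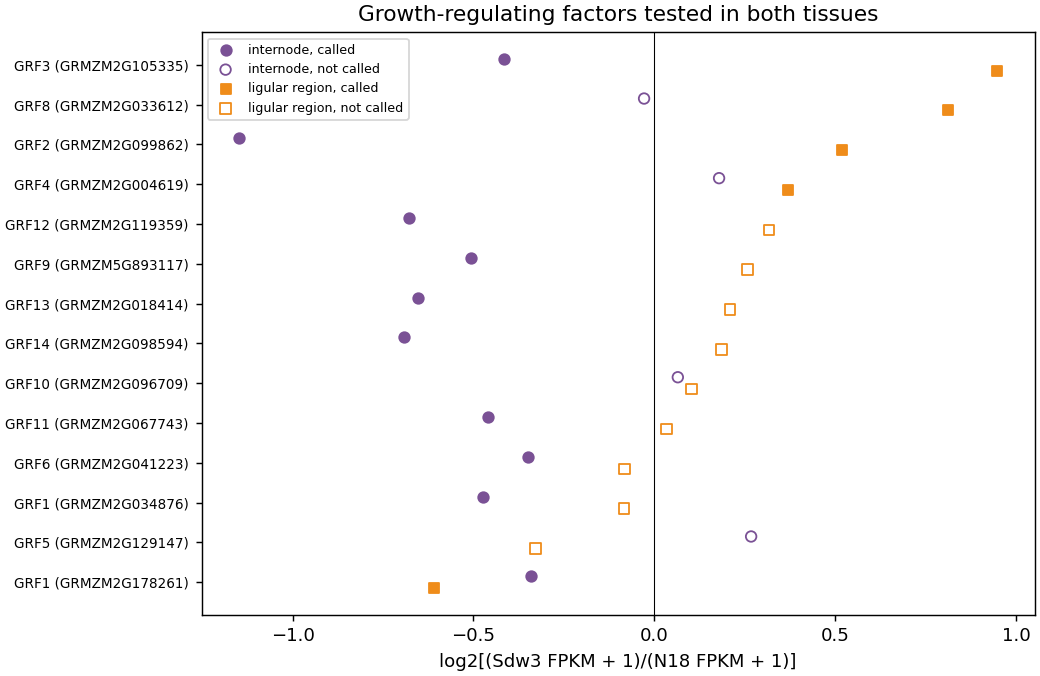
Log2 ratio of Sdw3 to N18 on the FPKM + 1 scale for the 14 growth-regulating factor genes tested in both tissues, with circles for the internode, squares for the ligular region and filled symbols for genes called in the authors' deposited table. GRF3 and GRF2 have filled symbols on opposite sides of 0, and GRF1 (GRMZM2G178261) has both filled symbols below 0.

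RPP2A (GRMZM2G119809, also listed as rpp2; chromosome 8, 72904842 to 72907132), which encodes an acidic P2 protein of the stalk of the large ribosomal subunit, was at 196 in the Sdw3 internode and 270.1 in the N18 internode. Its ligular level was 174 in Sdw3 and 115 in N18, a 1.51-fold difference. Its level therefore differed little between the tissues in Sdw3 and more in N18. The direction of that shift follows from the limits. Of the 5 stalk protein genes found by name, RPP2A was the only one called in the internode. In the ligular region 3 of the 5 were called higher and 0 lower, where 13.1% of all tested genes were called higher. The 3 include RPP2A, which the limits chose by its levels in both tissues, so these counts are in part a result of the selection. The other 2 called were rpp1a (374 in Sdw3 and 304 in N18) and arpp40 (156 and 120.2). For rpp1a the authors' deposited table lists q = 0.0469, close to the threshold. Its close relative rpp2b was called in neither tissue, and how reads that match both relatives were counted is not given in the sources used here.

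TIP4-1 (GRMZM2G103945; chromosome 6, 133537404 to 133539720) encodes a tonoplast intrinsic protein, a water channel of the vacuolar membrane. It was at 216 in Sdw3 and 117 in N18 in the ligular region, a 1.84-fold difference. In the internode it was at 3.92 in Sdw3 and 5.60 in N18, for which the authors' deposited table lists q = 0.0922, so its internode difference was not called. Among the 6 tonoplast aquaporin genes tested in the ligular region, 4 were called higher and 1 lower, and 1 did not pass. The gene called lower was TIP4-4, at 18.3 in Sdw3 and 27.8 in N18 in the ligular region, and it was also lower in the internode (35.6 and 49.7). TIP4-2, called higher in the ligular region at 22.8 in Sdw3 and 6.64 in N18, was not called in the internode. Over all 22 aquaporin genes tested in the ligular region 8 were called higher and 2 lower, and in the internode 6 of 19 were called higher and 1 lower. Over all tested genes, 13.1% were called higher and 13.7% lower in the ligular region, and 6.54% higher and 4.76% lower in the internode. The 4 and the 8 called higher in the ligular region both include TIP4-1. The limits chose TIP4-1 for a higher ligular level, so these counts are in part a result of the selection.

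The gene gar2 (GRMZM2G429000, also listed as GR1a; chromosome 10, 138833996 to 138835213) belongs to a series of maize genes isolated for their response to gibberellin, the hormone of stem elongation. It was at 402 in the Sdw3 internode and 559.8 in the N18 internode, and at 90.1 and 38.1 in the ligular regions of Sdw3 and N18, where it was 2.37-fold higher in Sdw3. It was the most abundant of the 5 named members in the internode. The other genes found by the names of this series, gar1 and GR2b, were called in neither tissue. In the internode gar1 was not tested, at 0.171 in Sdw3 and 0.114 in N18, and its ligular levels were 0.677 and 1.15. GR2b was at 1.99 in Sdw3 and 1.90 in N18 in the internode and at 12.3 and 10.6 in the ligular region, so it was the more abundant of the 2 in both tissues.

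ROA4 (GRMZM2G162445; chromosome 8, 118395997 to 118401227) was at 19.4 in the Sdw3 internode and 27.8 in the N18 internode, and at 2.81 and 1.13 in the ligular regions of Sdw3 and N18. A gene listed under the names ROA, ROA1, ROA2 and ROA3 (GRMZM2G100639) was called in the same directions in both tissues. It was at 46.5 in the Sdw3 internode and 58.4 in the N18 internode, for which the authors' deposited table lists q = 0.0222, and at 7.79 and 4.59 in the ligular region. Its internode log2 ratio of -0.32 kept it outside the limits. This relative was looked at after the values of ROA4 had been seen.

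Ranked by the smaller of their 2 changes, the first of the members called in both tissues was GRMZM2G167336 (chromosome 9, 128676961 to 128678835). It was at 3.48 in the Sdw3 internode and 7.57 in the N18 internode, 2.18 times as high in N18. Its ligular level was 7.30 in Sdw3 and 2.59 in N18, a 2.82-fold difference. This gene was more abundant in the internode in N18 and in the ligular region in Sdw3.

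The next 2 in that ranking were GRMZM2G075255 and GRMZM2G021706. GRMZM2G075255 (chromosome 5, 185743609 to 185749171) was at 19.7 in the Sdw3 internode and 35.8 in the N18 internode, and at 86.3 and 38.4 in the ligular regions of Sdw3 and N18. Its levels in the 2 N18 tissues were close to each other, while in Sdw3 the ligular level was the higher one. GRMZM2G021706 was at 4.61 in the Sdw3 internode and 8.62 in the N18 internode, and at 21.5 and 10.4 in the ligular region. GRMZM2G084947, 2 places further down, was at 1.11 in the Sdw3 internode and 2.86 in the N18 internode, and at 8.69 and 4.74 in the ligular region.

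Both tissues changed at least 2-fold in 3 of the called members, GRMZM2G167336, GRMZM2G173669 and GRMZM2G120151. GRMZM2G173669 was at 1.48 in the Sdw3 internode and 3.24 in the N18 internode, and at 32.5 and 11.6 in the ligular region. GRMZM2G120151 (chromosome 6, 158563455 to 158566518) had the largest internode fold of the 48, at 0.865 in Sdw3 and 3.25 in N18, and was at 2.68 and 1.30 in the ligular region. Folds at low levels such as these may depend on few fragments, but the fragment counts are not known here. GRMZM2G164131, at 0.640 and 2.13 in the internodes of Sdw3 and N18 and at 2.30 and 1.25 in the ligular regions, was another of this kind.

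**Figure D4:**
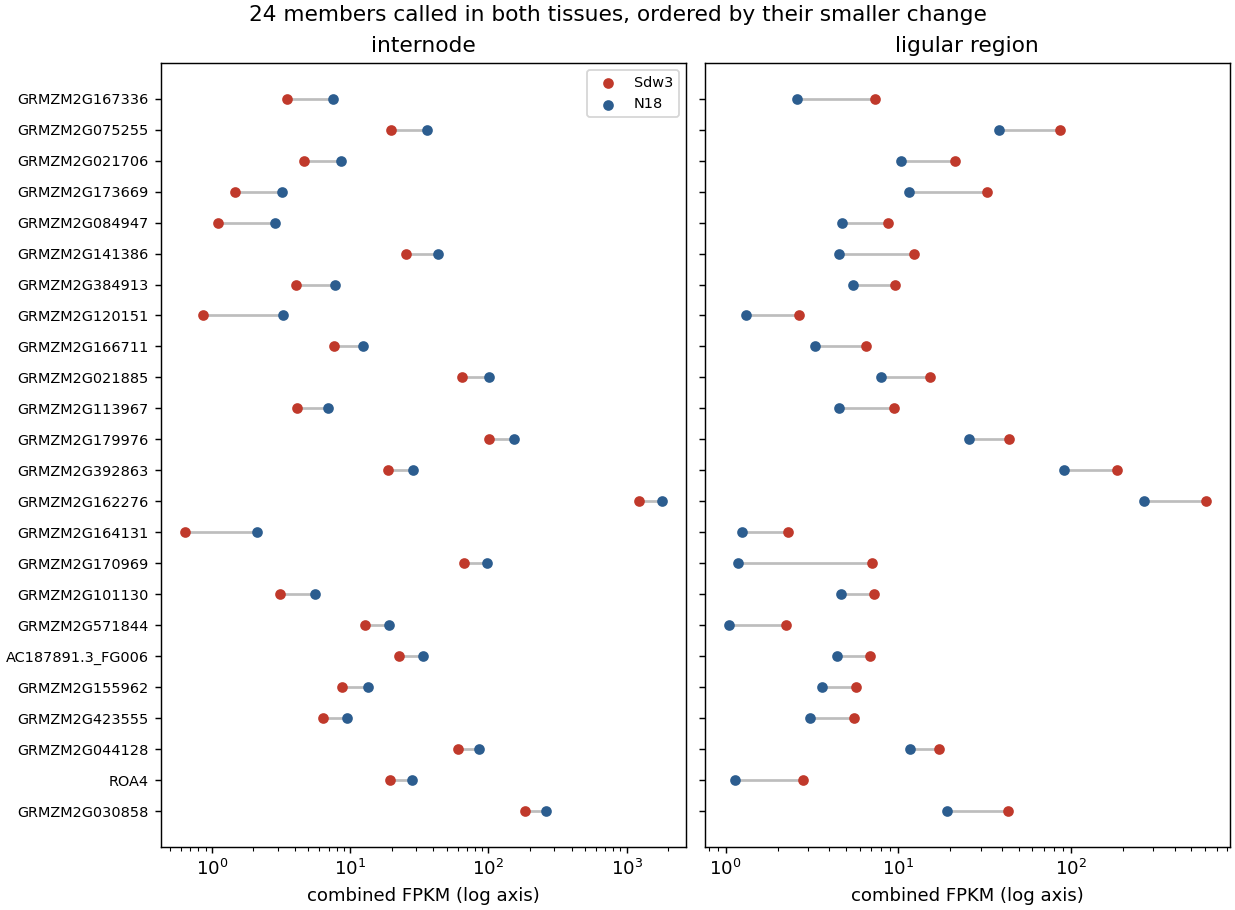
Authors' combined FPKM on a log axis for the 24 members called in both tissues with the largest smaller change, in the internode (left) and the ligular region (right), with Sdw3 in red and N18 in blue. In every row Sdw3 lies to the left of N18 in the internode and to its right in the ligular region, which the selection required, and levels run from 0.640 (GRMZM2G164131) to 1810.0 (GRMZM2G162276).

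Members differed widely in where they were expressed. The 2 tables may have been normalized separately, so levels set across tissues are descriptions. On the FPKM + 1 scale, 14 members in Sdw3 and 30 in N18 were at least 4-fold higher in the internode than in the ligular region. These are 17.5% and 37.5% of the members, beside 2.94% and 4.09% of the 18055 genes at or above an FPKM of 2. At least 4-fold higher in the ligular region were 18 members in Sdw3 and 6 in N18, or 22.5% and 7.5%, beside 4.82% and 6.19% of those genes. The same FPKM values chose the members, and a shift towards the ligular region in Sdw3 follows from the limits.

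The median log2 ratio of internode to ligular level was -0.39 in Sdw3 and 1.22 in N18 for the members. Over the 18055 genes it was 0.17 in Sdw3 and 0.18 in N18. More abundant in the internode than in the ligular region were 36 members in Sdw3 and 59 in N18. For 23 members the more abundant tissue was thus the ligular region in Sdw3 and the internode in N18. The limits allow a change of sides in this direction only.

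**Figure D5:**
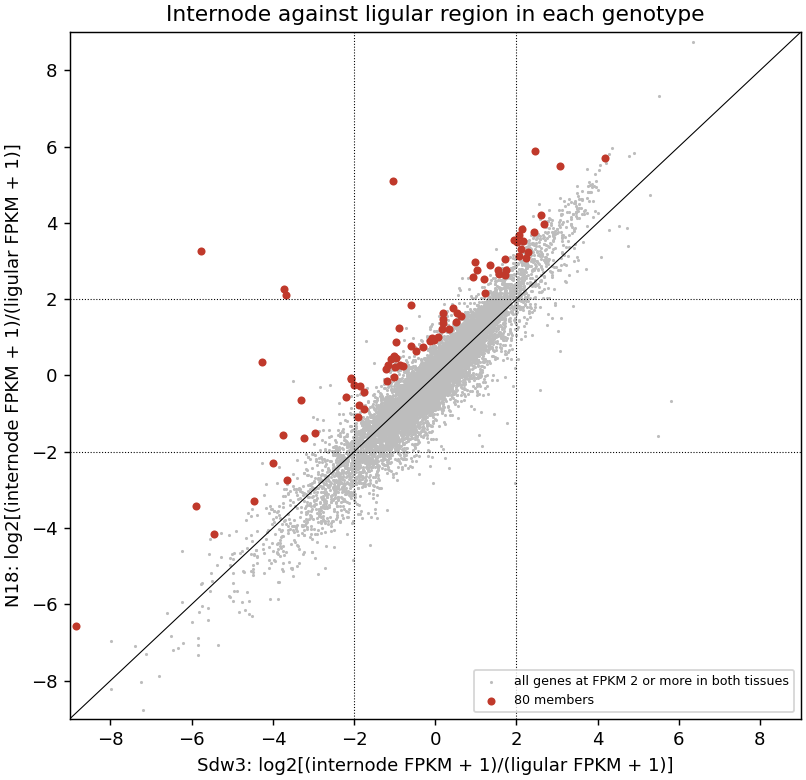
Log2 ratio of internode to ligular level on the FPKM + 1 scale in Sdw3 (horizontal) and in N18 (vertical) for 18055 genes (grey) and the 80 members (red), with the diagonal of equal ratios and dotted lines at 4-fold. Every member lies above the diagonal because of how members were chosen, and 30 lie above the upper dotted line in N18 while 14 lie right of the corresponding line in Sdw3; 2 genes fall outside the plotted range of 9.

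Of the 30 members that were at least 4-fold higher in the N18 internode, 21 were called in both tissues, among them GRF3, gar2 and ROA4. The most abundant member of all, GRMZM2G162276 (chromosome 2, 19823667 to 19824729), was at 1228 in the Sdw3 internode and 1810.0 in the N18 internode. Its ligular level was 606 in Sdw3 and 267 in N18, a 2.27-fold difference. Its tissue difference was 4-fold or more in N18 but not in Sdw3, and it alone made up a large part of the summed level of the set. Over all 80 members the FPKM summed to 4086 in the Sdw3 internode and 5902 in the N18 internode, or 2858 and 4092 without this gene. The ligular sums were 4726 in Sdw3 and 2148 in N18, or 4121 and 1881 without it.

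GRMZM2G132077 (chromosome 1, 152175788 to 152176887) had the largest fold in the ligular region of the 48, at 60.9 in Sdw3 and 6.73 in N18, a 9.04-fold difference. In the internode it was at 339 in Sdw3 and 459.9 in N18. It was more abundant in the internode than in the ligular region in both genotypes. GRMZM2G170969 (chromosome 8, 162305490 to 162306120) followed, at 7.01 in Sdw3 and 1.18 in N18 in the ligular region, a 5.96-fold difference, for which the authors' deposited table lists q = 0.00259. Its internode level was 66.3 in Sdw3 and 97.4 in N18.

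Other members of this class that were abundant in the internode showed ligular differences of 1.85-fold to 2.49-fold. GRMZM2G372074 was at 401 in the Sdw3 internode and 558 in the N18 internode, and at 122 and 65.7 in the ligular region. GRMZM2G030858 was at 185 in the Sdw3 internode and 259.9 in the N18 internode, and at 43.1 and 19.1 in the ligular region. GRMZM2G167649 was at 182 in the Sdw3 internode and 241 in the N18 internode, and at 9.10 and 3.65 in the ligular region. Each of these 3 genes shares its locus with at least 1 other gene, so their reads may be divided between genes and their values are less certain. In the ligular regions of Sdw3 and N18 GRMZM2G033117, which shares the locus of GRMZM2G030858, was at 57.8 and 69.0. GRMZM2G070881, in the locus of GRMZM2G372074, was at 7.06 and 8.38 there. GRMZM2G167584, in the locus of GRMZM2G167649, was at 0.206 and 0.187.

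Also in this class, called in both and with an internode level above 50 in N18, were GRMZM2G179976, GRMZM2G021885 and GRMZM2G044128. GRMZM2G179976 was at 101 in the Sdw3 internode and 154 in the N18 internode, and at 43.8 and 25.9 in the ligular region. GRMZM2G021885, on chromosome 10, was at 64.7 in the Sdw3 internode and 101 in the N18 internode, and at 15.2 and 7.93 in the ligular region. GRMZM2G044128 was at 60.1 in the Sdw3 internode and 85.5 in the N18 internode, and at 17.3 and 11.7 in the ligular region. In all 3 the internode level of Sdw3 still exceeded the ligular level of Sdw3.

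Lower down, GRMZM2G141386 (25.2 in the Sdw3 internode and 43.0 in the N18 internode, 12.3 and 4.54 in the ligular region) and GRMZM2G124091 (15.6 and 21.4, then 3.34 and 0.889) were also called in both. The 3.76-fold ligular difference of GRMZM2G124091 rests on a level under 1 in N18.

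Between the 4-fold limits in N18 lay 44 members, 26 of them called in both tissues, with RPP2A, GRMZM2G167336 and GRMZM2G075255 among them. The most abundant in the ligular region were GRMZM2G105364 and EF517601.1_FG016. GRMZM2G105364 was at 474 in Sdw3 and 295 in N18 in the ligular region, and at 129 and 173 in the internode. EF517601.1_FG016 was at 449 in Sdw3 and 93.9 in N18 in the ligular region, a 4.78-fold difference, and at 44.6 and 60.2 in the internode, where the authors' deposited table lists q = 0.0459. Its locus spans under 500 bp, the only such one among the 48 members called in both.

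GRMZM2G392863 was at 186 in Sdw3 and 91.8 in N18 in the ligular region, and at 18.9 and 28.6 in the internode. GRMZM2G164141, on chromosome 3, was at 58.7 in Sdw3 and 42.1 in N18 in the ligular region, and at 84.7 and 112 in the internode. GRMZM2G429940 was at 45.1 in Sdw3 and 28.6 in N18 in the ligular region, and at 36.4 and 48.7 in the internode. Of these 3, the first was more abundant in the ligular region in both genotypes, the second in the internode in both, and the third changed sides. Smaller levels were seen for GRMZM2G113967 (4.16 in the Sdw3 internode and 6.92 in the N18 internode, 9.503 and 4.57 in the ligular region) and GRMZM2G020761 (2.11 and 5.35, then 5.96 and 4.21). The 16 members called in both tissues that are not described singly had levels of 3.14 to 36.98 in Sdw3 and 5.56 to 49.8 in N18 in the internode, where N18 was 1.35 to 1.94 times as high. Their ligular levels were 2.23 to 19.6 in Sdw3 and 1.04 to 14.2 in N18, 1.38-fold to 2.15-fold higher in Sdw3.

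The 6 members that were at least 4-fold higher in the N18 ligular region included TIP4-1. Only 1 of the 6, GRMZM2G162508, was called in both tissues, at 126 in Sdw3 and 90.7 in N18 in the ligular region and at 9.19 and 12.7 in the internode. GRMZM5G834952 (chromosome 4, 237452445 to 237453056) had the highest ligular level of all members, 874 in Sdw3 and 309 in N18, a 2.83-fold difference. In the internode it was at 0.893 in Sdw3 and 2.28 in N18, not called, for which the authors' deposited table lists q = 0.303. GRMZM2G064096 was likewise called higher in the ligular region, at 120.1 in Sdw3 and 35.2 in N18, and not called in the internode, at 1.02 and 2.40. GRMZM2G027478, whose locus is shared with another gene, was at 114 in Sdw3 and 69.1 in N18 in the ligular region and at 4.24 and 6.14 in the internode, where it was not called. For these ligular genes the internode side of the pattern rests on low levels.

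The 11 members called in the ligular region alone had N18 internode levels of 2.09 to 6.14, and their internode q-values in the authors' deposited table ran from 0.0594 to 0.303. The 5 called in the internode alone were GRMZM2G423898, GRMZM2G146573, AC209819.3_FG005, GRMZM2G138888 and GRMZM5G831577, with ligular q-values of 0.0534 to 0.21 in the authors' deposited table. GRMZM2G146573 was at 21.6 in the Sdw3 internode and 40.4 in the N18 internode, and at 2.74 and 1.22 in the ligular region. GRMZM2G423898 was at 4.82 in the Sdw3 internode and 11.5 in the N18 internode, and at 7.76 and 2.50 in the ligular region.

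The 16 members called in neither tissue hold the 5 genes with the most extreme pairs of ratios, and all 5 are listed at 0 in at least 1 group. GRMZM5G850577 is listed at 0 in the Sdw3 internode and at 8.60 in the N18 internode, and at 53.8 and 0 in the ligular regions of Sdw3 and N18. It was tested in neither tissue, and its locus spans 195 bp. AC203048.3_FG001 is listed at 0 in the Sdw3 internode and at 3.79 in the N18 internode, and at 12.1 and 0 in the ligular region, tested but not called. AC204387.3_FG002 follows the same order of levels (0 and 3.29, then 11.8 and 0). GRMZM5G811034 was at 11.9 in the Sdw3 internode and 33.1 in the N18 internode, and at 25.4 in the Sdw3 ligular region with N18 listed at 0 there. The last of the 5, GRMZM5G815553, lies in the plastid genome, in a locus shared with 10 other genes, and was at 0 and 4.42 in the internode and at 18.2 and 3.27 in the ligular region.

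The other 11 members called in neither tissue had log2 ratios of -1.13 to -0.43 in the internode and of 0.44 to 1.45 in the ligular region. The lowest q-values that the authors' deposited tables list for them were 0.0879 for the internode, where 1 was untested, and 0.0819 for the ligular region. So these 11 pass the limits on their ratios without passing the authors' test in either tissue. The most abundant was AC233922.1_FG004, at 28.8 in the Sdw3 internode and 46.9 in the N18 internode and at 231 and 136 in the ligular region, over a locus of 231 bp.

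Short and overlapping gene models were common among the members. A locus under 1000 bp was held by 15 members (18.8%), beside 6.14% of the 18055 genes, and 8 of these 15 were among the 16 called in neither tissue. The median locus length was 2263 bp for the members, 2643 bp for those called in both tissues and 3959 bp for the 18055 genes. A locus shared with another gene was found for 14 members (17.5%), beside 6.35% of the 18055 genes. The member GRMZM2G010105 was at 20.3 and 28.3 in the internodes of Sdw3 and N18 and at 2.32 and 0.866 in the ligular regions. The gene that shares its locus, AC204007.3_FG008, was also called higher in the ligular region, at 25.5 in Sdw3 and 11.001 in N18. In the internode AC204007.3_FG008 was not called, at 260 in Sdw3 and 297 in N18. No other gene that shares a locus with a member was called in either tissue. An entry in the reference table was found for 49 members (61.3%), beside 73.8% of the 18055 genes, and 47 of the 48 with a single entry are protein coding there.

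Apart from 1 plastid gene, members lay on all 10 chromosomes, from 4 on chromosome 7 to 13 on chromosome 1. Chromosome 10 held 8 members (10% of them, beside 6.37% of the 18055 genes), and chromosome 3 held 7 (8.75%, beside 10.8%). Members stood within 500 kb of the next one in 3 places. The closest were GRMZM2G021706 (14648063 to 14650932) and GRMZM2G173669 (14767639 to 14770295) on chromosome 10, with 117 kb between them, both called in both tissues. Of 3 genes between them 1 reached an FPKM of 2 in both tissues, GRMZM2G048175. It was called higher in Sdw3 in both tissues, at 106 in the Sdw3 internode and 73.1 in the N18 internode and at 36.6 and 14.4 in the ligular region. The limits set both directions for the 2 members, so only GRMZM2G048175 was free to differ. It shared their ligular direction and not their internode direction.

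The other neighbouring members were GRMZM2G302664 and GRMZM2G064096 on chromosome 6, 405 kb apart, and GRMZM2G124091 and GRMZM5G824201 on chromosome 8, 242 kb apart. None of the 7 genes between the first pair at an FPKM of 2 in both tissues was called in the members' direction in either tissue, and 1 was called lower in the ligular region. Between the second pair 0 of 9 were called in the internode in either direction, and 2 were called higher and 3 lower in the ligular region. GRMZM2G302664 was called in the ligular region, at 3.72 in Sdw3 and 1.44 in N18, and not in the internode, at 1.39 and 2.35.

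At the limits, the members just inside were GRMZM2G061732, with an internode log2 ratio of -0.40 (4.36 in Sdw3 and 6.08 in N18), GRMZM2G433731 (2.71 and 3.90 in the internode) and AC209819.3_FG005, with a ligular log2 ratio of 0.40 (2.06 in Sdw3 and 1.32 in N18). Just outside were GRMZM2G104549, at 206 in Sdw3 and 156 in N18 in the ligular region, GRMZM2G088482 (4.88 and 3.46 there) and GRMZM5G896859, at 1.93 and 2.86 in the internode. Among genes that are not members, those nearest to the median pair of log2 ratios of the set, by Euclidean distance over the 2 tissues, were GRMZM2G003648, GRMZM5G896859, GRMZM2G128807, GRMZM2G177165 (named cha101) and AC190915.3_FG007, at distances of 0.165 to 0.179. GRMZM2G128807 was at 149 in the Sdw3 internode and 194 in the N18 internode and at 16.2 and 9.39 in the ligular region, and cha101 was at 24.2 and 31.6, then 3.39 and 1.56. Both were called in both tissues, and the authors' deposited table lists q = 0.00646 and q = 0.00711 for their internode differences. GRMZM2G003648 and AC190915.3_FG007 were called in neither tissue, and GRMZM5G896859 was called in the ligular region alone. Each of the 5 had an internode log2 ratio between -0.40 and -0.37, just short of the limit. The median pair lies nearer to the internode limit than to the ligular one, so picking by distance favours such genes.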

How the data were processed

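Illumina RNA sequencing was done on 12 maize samples, per the labels' protocols. CASAVA 1.8, bcl2fastq, TopHat2 2.1.0 and Cufflinks were used on B73 RefGen_v3, per the submitters' processing notes; the sources used here do not give the Cufflinks program, its version or its normalization. The authors deposited, for each of 39514 genes and each tissue, 1 value per genotype and a p-value and q-value of Sdw3 against N18, per the file headers. The headers do not name the unit of these values. From the Cufflinks layout of the columns and the tools in the submitters' notes, the deposited values were read as FPKM that the authors combined over the libraries of a genotype. The planned model on single libraries was not possible, so the authors' deposited q-value under 0.05 is the call. It covers 21131 internode genes and 22721 ligular genes that were tested.

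Log2 ratios were computed from FPKM with a pseudocount of 1. The code of the rule was checked on simulated data, with planted changes in well expressed genes that were larger than those of most members. That check cannot say how many genes pass the limits in error. Coordinates are as the files give them. Names came from a RefSeq table of a later assembly, Zm-B73-REFERENCE-NAM-5.0, which matched 18962 identifiers; no sequence is shown. The members, lists, tests and limits were chosen with earlier results of these data known. The naming rule took the 12 members with the largest smaller ratio, the 8 most abundant, those called in both tissues, those on a gene list and those at the limits; of these, members with a gene name were to be described by role and the rest by counts and ranges. Members without a gene name that are described singly were chosen after their values were seen. Lists were matched by name, and 1 marker gene is not reported here. The narrower lists of ribosomal stalk proteins, tonoplast aquaporins, the GR series and ROA were drawn up after the named members were known. Alternatives were other pseudocounts, floors, limits, centring, a stricter q-value and leaving out shared loci. Scripts ran under Python 3.11.15 with pandas 2.3.3, numpy 2.4.6 and matplotlib 3.10.9.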

Additional observations from a re-analysis of the deposited data

How the results depend on the processing

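The set of 80 genes depends on where its limits are put. With a limit of 0.5 on the log2 ratio it held 37 genes, of which 24 were called in the internode, 26 in the ligular region and 22 in both. With a limit of 0.6 it held 22, with 13, 13 and 11 called. With a floor of FPKM 5 it held 48 genes, 39 of them called in the ligular region. A floor of FPKM 1 gave 106 genes, and pseudocounts of 0.5 and 0.1 gave 98 and 119; in these 3 settings all 80 genes were kept. Centring the log2 ratios on the median of each tissue kept 63 of the 80, with 37 called in both, leaving out shared loci kept 66, with 42, and a q-value under 0.01 left 33 called in both. No paired analysis was possible because the tables hold 1 combined value per genotype and tissue. For the same reason leaving out each replicate in turn was not run, and neither the depth nor the spread between libraries is known.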
